A study of Cucumis sativus and Manihot esculenta and Brachypodium distachyon with 34 samples.

Results

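The regions described here are all 103724 segments of the *Eucalyptus grandis* genome that were called methylated in the CHH context (mCHH regions) in leaf, out of 809247 mCHH regions in the 6 species of the series with such a file. Every region of the file was kept. *E. grandis*, the rose gum, is a woody dicot, and the plant was the sequenced accession BRAZUS1, with no treatment or mutation named. Leaf DNA was sequenced after bisulfite treatment, which converts unmethylated cytosines (MethylC-seq), to call the regions, and 1 small RNA library was made from leaf RNA with the TruSeq kit. Each region comes with its position, its mCHH level (the weighted share of CHH cytosines read as methylated) and the reads of 20, 21, 22, 24, 25 and 26 nt that overlap it. Reads of 23 nt have no column. There is a single library and a single set of regions, so nothing below was tested. Intervals are 95% intervals. Those on densities and on shares of reads treat each hit of a read as independent. Those on shares of regions and on median levels or lengths treat each region as independent. Regions are not replicates, and nearby regions were alike in level and in 24 nt reads, as given below. A read that matches several places gives a hit at each place and is counted at each of them. The intervals are therefore too narrow even for counting error.

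CHH stands for a cytosine followed by 2 bases other than guanine. Methylation there cannot be copied from a symmetric partner strand and has to be placed again after each DNA replication. In flowering plants this is done by RNA-directed DNA methylation, in which 24 nt small interfering RNAs (siRNAs) made from transposons and repeats guide the methyltransferase DRM2 to matching sequence, and by CMT2, which acts in heterochromatin without siRNAs. Small RNAs of 21 and 22 nt are the usual sizes of microRNAs and of siRNAs that act on transcripts.

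The small RNA values are whole multiples of a single step in 100% of 15971 entries (within 0.1 of a whole number), and the step corresponds to 2614647 mapped hits in the library. Of these, 85314 hits of 20, 21, 22, 24, 25 or 26 nt overlapped an mCHH region, and these hits are called reads here. They made up 3.26% of all mapped hits. Hits of 23 nt and of other lengths without a column were not counted as overlapping, so the full overlapping share may be higher. The study counted far fewer mapped reads than mapped hits in this library, so the number of separate molecules behind the hits is smaller. By length the reads were 6795 of 20 nt, 30095 of 21 nt, 6300 of 22 nt, 38503 of 24 nt, 2400 of 25 nt and 1221 of 26 nt. Most regions had none: 10446 regions (10.1%) held a read of any of these lengths, 7888 (7.60%) a read of 24 nt, 3383 (3.26%) a read of 21 nt and 2619 (2.52%) a read of 22 nt. Among the regions with a 24 nt read, 3461 (43.9%) held only 1. The values of a single region are therefore mostly at the limit of detection at this depth, and a region without a read is one in which none was seen. The files give no read or site counts for the methylation level. The study reports a coverage and a non-conversion rate for the methylome as a whole, but the depth behind a single level is unknown.

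The eucalypt regions were short and weakly methylated. Their length ran between 6 and 5291 bp with a median of 205 bp, 20848 regions (20.1%) were under 100 bp, and 2333 (2.25%) were 800 bp or longer. Their mCHH level ran between 0.338 and 100% with a median of 8.55% (quartiles 4.58 and 16.05%). Longer regions had the lower levels, with a Spearman correlation of -0.49 over 103724 regions. This relation is partly built in, since regions were trimmed to their outermost methylated sites and needed a minimum number of such sites. Adjacent regions of a scaffold lay at a median of 1806 bp apart (quartiles 556 and 6211 bp), and the levels of adjacent regions went together, with a Spearman correlation of 0.40 over 101303 pairs. The extremes carried no reads. The longest region (scaffold_98, positions 155714 to 161005) had a level of 2.19% and 0 reads. The highest level among regions of at least 100 bp was 84.5%, in the 163 bp at positions 31485504 to 31485667 of scaffold_7, and the lowest was 0.338%, in the 304 bp at positions 34283737 to 34284041 of scaffold_11, both again with 0 reads. That lowest level is below the non-conversion rate the study reports for this methylome, so it cannot be told from no methylation. In all, 57 regions reached a level of 80%, of which 52 were under 100 bp and 53 had no read.

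The first comparison set scaffold_1 to scaffold_11, which stand for the chromosomes of this genome, against the other scaffolds. The chromosomes held 94078 regions and 23.8 Mb of region length, and the other 2410 scaffolds held 9646 regions and 2.38 Mb. Regions of both kinds were about equally long, with a median of 205 bp on the chromosomes and 202 bp on the other scaffolds. The median level was 8.65% on the chromosomes and 7.60% on the other scaffolds, a difference of 1.04 percentage points (interval 0.824 to 1.27). This difference was 2.76 points against other scaffolds with at least 20 regions and 0.363 points by means. The share of regions with a 24 nt read was 7.64% (7.47 to 7.81%) on the chromosomes and 7.24% (6.74 to 7.77%) on the other scaffolds, so these intervals overlap. Per kb of region the chromosomes had 1.46 reads of 24 nt and the other scaffolds 1.55, a ratio of 0.944 (0.913 to 0.977). That direction rests on a few small scaffolds. Against the 71 other scaffolds with at least 20 regions the ratio was 1.37. Those had 1.07 reads of 24 nt per kb, while the 2339 scaffolds with fewer regions had 1.77. Without the 25 regions of the 6 other scaffolds with most reads, the other scaffolds together had 1.27 per kb.

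Reads of 21 nt were denser on the chromosomes, at 1.22 per kb against 0.492 per kb on the other scaffolds, a ratio of 2.48 (2.34 to 2.63). A pair of regions made most of that gap, as described below, and without them the chromosomes had 0.542 reads of 21 nt per kb, a ratio of 1.102 (1.04 to 1.17). Reads of 25 and 26 nt ran the other way. The chromosomes had 0.0298 reads of 26 nt per kb against 0.215 on the other scaffolds, and of the 26 nt reads on other scaffolds 93.2% came from the 25 regions of 6 scaffolds (scaffold_39, scaffold_3013, scaffold_3426, scaffold_4200, scaffold_4071 and scaffold_2981). These 6 scaffolds held 36.7% of all reads and 18.1% of the 24 nt reads on the other scaffolds. The 24 nt share of reads on the other scaffolds was 50.5% with them and 65.4% without them.

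Among the chromosomes, level and length were nearly constant while small RNAs were not. The median level lay between 8.12% on scaffold_9 and 9.40% on scaffold_2, all above the 7.60% of the other scaffolds, and the median length between 198 and 214 bp. The share of regions with a 24 nt read lay between 5.56% (5.12 to 6.04%) on scaffold_2 and 12.5% (11.7 to 13.2%) on scaffold_10, with scaffold_9 at 9.71% and scaffold_5 at 9.20%. The density of 24 nt reads followed a like order, with 2.15 per kb on scaffold_10, 1.95 on scaffold_9, 1.82 on scaffold_7 and 1.67 on scaffold_5, down to 1.01 on scaffold_11. Reads of 21 nt were at 0.446 to 0.691 per kb on the chromosomes other than scaffold_8 (1.85 per kb) and scaffold_2 (5.62 per kb).

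**Figure D1:**
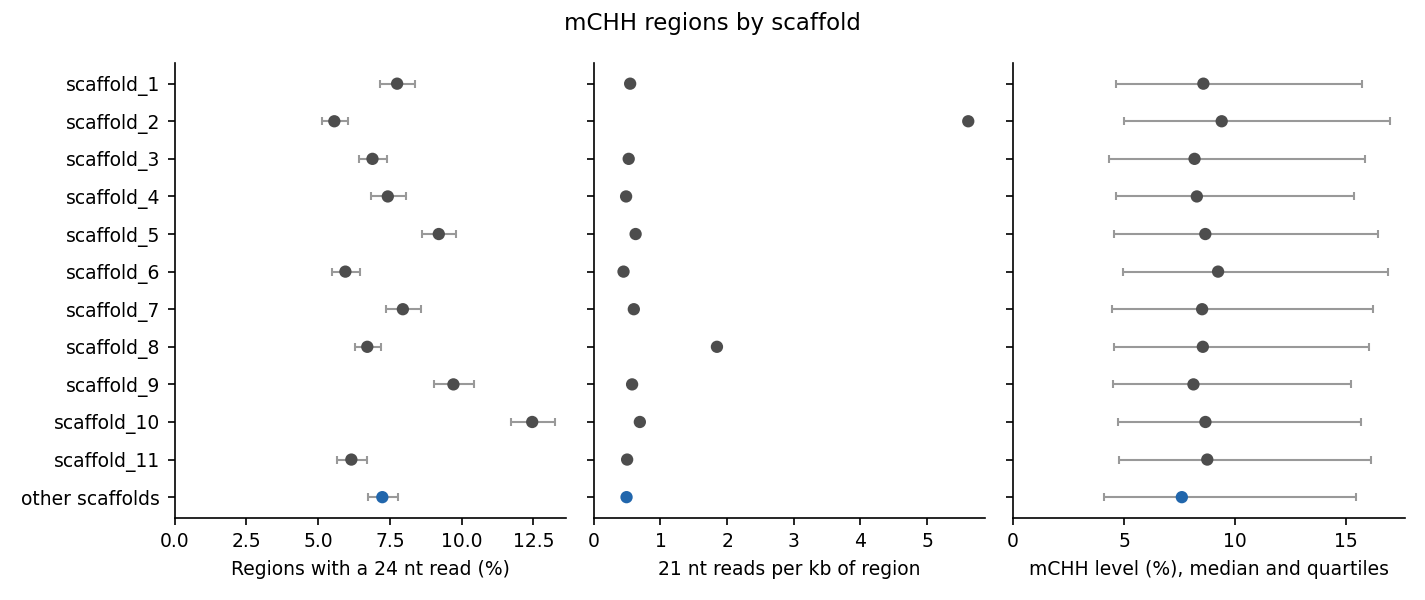
Share of regions with a 24 nt read (left, with 95% Wilson intervals), 21 nt reads per kb of region (middle) and median mCHH level with quartiles (right) for scaffold_1 to scaffold_11 and for all other scaffolds together. The share with a 24 nt read reaches 12.5% on scaffold_10 and is 5.56% on scaffold_2, 21 nt reads stand out on scaffold_2 and scaffold_8, and the median level stays between 8.12 and 9.40% on the 11 chromosomes.

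Regions with a 24 nt read were frequent in a few long stretches. Windows of 1 Mb were laid along scaffold_1 to scaffold_11, and the windows that stood out were adjacent to each other at scaffold starts. A rule was then written down after these values had been seen: at least 3 consecutive windows of 20 or more regions in which at least 13% of the regions held a 24 nt read. It gave 4 stretches, the first 8 Mb of scaffold_5, the first 4 Mb of scaffold_7, the first 9 Mb of scaffold_9 and the first 14 Mb of scaffold_10, each beginning in the first window of its scaffold. Since 24 nt reads chose the stretches, the share of regions with one is a description. In the 4 stretches of the main rule it was 19.8% on scaffold_5, 22.4% on scaffold_7, 21.6% on scaffold_9 and 21.3% on scaffold_10. In the remainder of the same scaffolds it was 7.53, 6.86, 6.98 and 6.50%. With the stretches set aside, all 11 chromosomes lay between 5.56 and 7.75%. Setting aside windows chosen by this share lowers it in advance, so this range is a description too.

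The 35 windows in the stretches had shares between 14.2 and 35.4% (median 20.3%), and the other 574 windows with at least 20 regions had shares between 0 and 28.0% (median 6.29%). A stretch ends where the share falls below 13%, so a drop at its inner end follows from the rule. The last window inside and the next window had 17.9 and 7.46% on scaffold_7, and 16.6 and 8.62% on scaffold_9. They had 14.8 and 6.83% on scaffold_10, and 24 and 12.9% on scaffold_5. The window after these had 7.30% on scaffold_7, 10.7% on scaffold_9, 11.2% on scaffold_10 and 10.1% on scaffold_5. Choosing the windows on every other region along the genome and taking the values from the remaining regions gave 20.8% inside and 6.85% outside. The remaining regions lie between those that chose the windows, and regions with 24 nt reads lay near each other, as given below. A like contrast follows largely from this, so the split cannot serve as an independent check. It was, like the stretches, added after the data were seen.

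**Figure D2:**
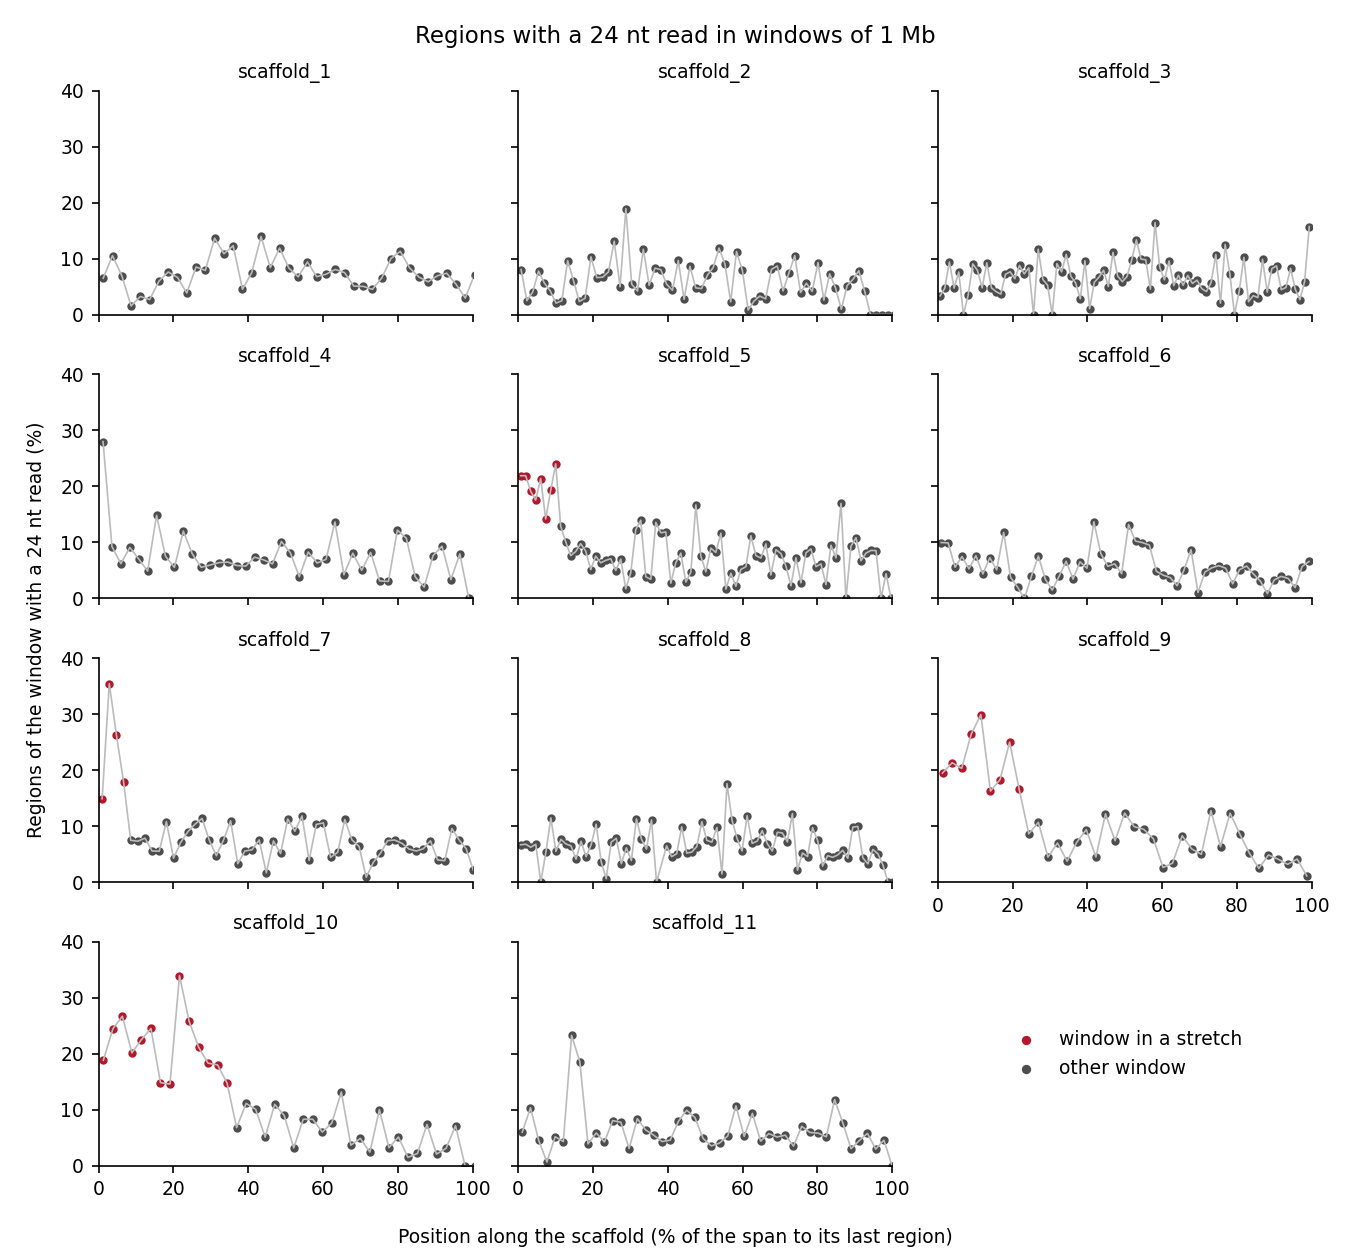
Share of regions with a 24 nt read in windows of 1 Mb with at least 20 regions, along scaffold_1 to scaffold_11 (position as percent of the span to the last region). Red points are windows of the 4 stretches at the starts of scaffold_5, scaffold_7, scaffold_9 and scaffold_10, which lie between 14.2 and 35.4%, and grey points are all other windows, with a median of 6.29%.

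The stretches held 6028 regions, 5.81% of all. Chosen by 24 nt reads, they held 15.2% of the 24 nt reads and 16.2% of the regions with one. In what the choice did not use, the methylated regions themselves were much the same inside and outside. The median level was 8.83% in the stretches and 8.63% in the rest of the chromosomes, the median length was 206 and 205 bp, and 10.1 and 11.01% of the regions were above 25% mCHH. The levels of the single stretches scattered more, with medians of 10.3% on scaffold_5, 7.05% on scaffold_7, 7.22% on scaffold_9 and 9.26% on scaffold_10.

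Regions with a 21 or 22 nt read were also more frequent there, but this is not independent of the choice. Over all eucalypt regions, 51.3% of those with a 21 nt read also held a 24 nt read. Of those with a 22 nt read 74.9% did. The share of regions with a 21 nt read was 6.90% (6.29 to 7.57%) in the stretches and 3.09% (2.97 to 3.20%) in the rest of the chromosomes, and that with a 22 nt read was 7.37% (6.73 to 8.05%) and 2.199% (2.10 to 2.30%). Since 24 nt reads chose the stretches, the share and density of 24 nt reads there are a description only. Of the reads in the stretches 71.5% (70.5 to 72.5%) were 24 nt long, 11.8% were 21 nt and 11.4% were 22 nt. In the rest of the chromosomes 41.5% (41.1 to 41.8%) were 24 nt and 40.1% were 21 nt. Without the pair of regions with most reads, the rest had 59.1% of 24 nt and 24.5% of 21 nt reads. In that setting the density in the stretches over that in the rest was 2.92 for 24 nt reads (2.83 to 2.999), 3.05 for 22 nt reads (2.84 to 3.28), 1.16 for 21 nt reads (1.08 to 1.24) and 0.221 for 26 nt reads (0.0948 to 0.438, from 8 reads in the stretches).

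**Figure D3:**
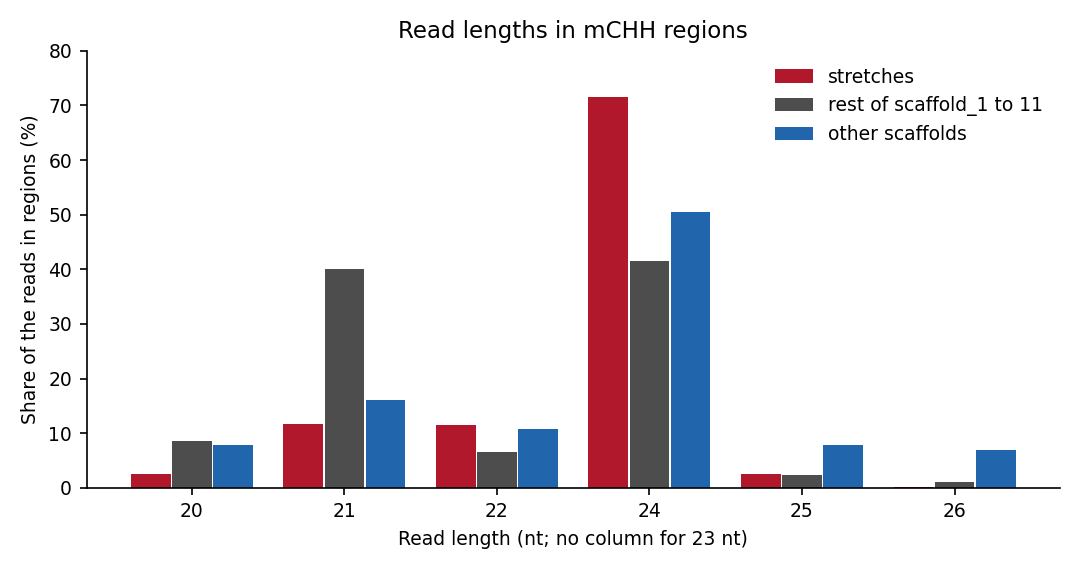
Share of the reads in mCHH regions by read length, for the stretches, the rest of scaffold_1 to scaffold_11 and the other scaffolds. Reads of 24 nt make up 71.5% in the stretches, which were chosen by 24 nt reads. They make up 41.5% in the rest of the chromosomes and 50.5% on the other scaffolds. The 21 nt bar of 40.1% in the rest comes mostly from a pair of regions.

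The relation between methylation level and 24 nt reads was then set out inside and outside the stretches. Regions were put in 4 groups by level. In the stretches the density of 24 nt reads was 1.94 per kb in regions below 5% mCHH, 3.58 at 5 to 15%, 5.52 at 15 to 25% and 11.9 above 25%. The rest of the chromosomes had 1.24, 1.34, 1.35 and 1.35 per kb over the same groups, and on the other scaffolds 1.17, 1.91, 1.86 and 1.70 per kb. Regions above 25% thus had 3.31 times the density of those at 5 to 15% in the stretches (3.09 to 3.55), 1.003 times in the rest of the chromosomes (0.956 to 1.05) and 0.893 times on the other scaffolds (0.775 to 1.03). With regions weighted to the same length classes the ratios were 3.32, 0.968 and 0.947. Not every class or group shared this pattern. In the rest of the chromosomes the ratio of above 25% to 5 to 15% ran both ways by length. It was 1.18 (0.848 to 1.66) under 50 bp, 0.765 (0.664 to 0.879) at 50 to 100 bp and 1.51 (1.40 to 1.63) at 100 to 200 bp. At 200 to 400 bp it was 0.626 (0.562 to 0.696), at 400 to 800 bp 0.570 (0.484 to 0.667) and at 800 bp and over 1.73 (1.46 to 2.03). In the stretches the ratio was 0.926 (0.724 to 1.17) among regions of 400 to 800 bp, and in the rest of the chromosomes regions above 25% had, after weighting, 1.29 times the density of those below 5% (1.23 to 1.35). Over all eucalypt regions together the weighted ratio was 1.26 (1.22 to 1.31). The value for the rest depends on a few regions: with the 1% of regions with most 24 nt reads left out, the ratio was 1.27 in the rest and 2.57 in the stretches. With windows chosen on every other region the ratio in the stretches was 2.64.

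Each of the 4 stretches had its highest density above 25% mCHH. The density there and at 5 to 15% was 10.9 and 2.56 per kb on scaffold_5 (ratio 4.25, 3.60 to 5.01), 15.5 and 4.14 per kb on scaffold_7 (3.73, 2.93 to 4.73), 11.4 and 5.63 per kb on scaffold_9 (2.03, 1.73 to 2.37) and 11.99 and 3.01 per kb on scaffold_10 (3.99, 3.61 to 4.41). Outside the stretches the same ratio, taken per chromosome, lay between 0.690 on scaffold_1 and 1.47 on scaffold_8 with a median of 0.767, and was above 1 on 4 of the 11. The remainder of scaffold_10 had 0.721, that of scaffold_9 0.767, that of scaffold_7 0.756 and that of scaffold_5 1.31. Whether the ratios inside and outside differ beyond biological variation was not tested. Whether the small RNA reads and the regions were placed on the same version and order of the genome was not tested either, so the values inside and outside the stretches hold for the positions as deposited.

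The number of regions with a read, which a few dense regions cannot move, was set out by the same groups, not weighted for length. In the stretches a 24 nt read was found in 13.8% (12.2 to 15.6%) of the regions below 5% mCHH, in 20.7% (19.3 to 22.2%) at 5 to 15%, in 25% (22.4 to 27.8%) at 15 to 25% and in 35.9% (32.1 to 39.8%) above 25%. In the rest of the chromosomes the order was turned round, with 8.35% (8.01 to 8.70%), 6.69% (6.45 to 6.94%), 5.26% (4.91 to 5.64%) and 4.89% (4.48 to 5.34%). On every one of the 11 chromosomes, stretches left out, the share above 25% was below the share under 5%. Region length moves with these shares, since the median length was 299 bp below 5% and 102 bp above 25% mCHH over all regions. In the rest of the chromosomes these medians were 300 and 105 bp. There the share with a 24 nt read was 1.89% under 50 bp and 18.1% at 800 bp and over. The order in the rest is thus not separate from length, and the density weighted for length, given above, was higher above 25% than below 5%. Among regions of at least 100 bp above 25% mCHH, 143 of 324 (44.1%) in the stretches had a 24 nt read and 23 had 10 or more, while 341 of 5039 (6.77%) in the rest of the chromosomes had one and 37 had 10 or more.

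**Figure D4:**
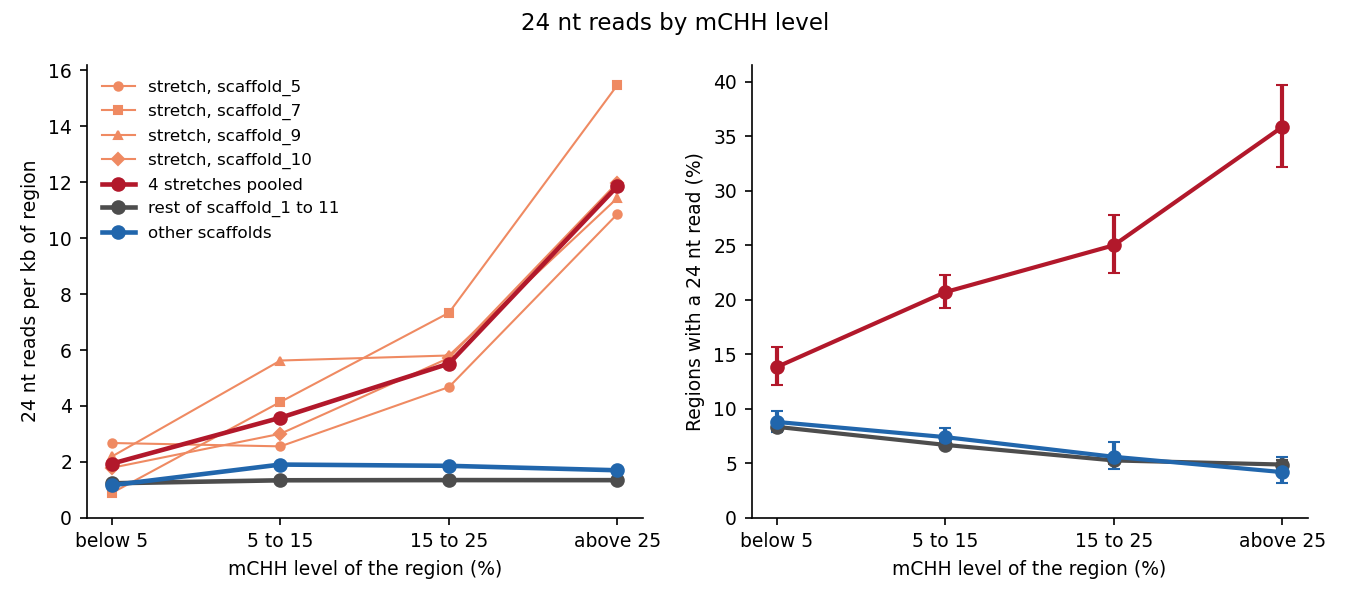
Density of 24 nt reads (left) and share of regions with a 24 nt read (right, with 95% Wilson intervals) by mCHH level group, for the stretches (single and pooled), the rest of scaffold_1 to scaffold_11 and the other scaffolds. In the pooled stretches the density goes up to 11.9 reads per kb and the share to 35.9% above 25% mCHH. In the rest of the chromosomes the density, pooled over all lengths, stays between 1.24 and 1.35 per kb and the share is 4.89% above 25%.

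Regions with and without reads were compared directly. Over all regions, those with a 24 nt read had a median level of 7.61% and those without 8.64%, a difference of -1.04 percentage points (-1.23 to -0.841), and they were longer, with medians of 275 and 200 bp. The sign of the level difference went with length. In each of the 6 length classes regions with a read had the higher median, and the difference weighted over the classes was 0.498 points (0.305 to 0.690). With regions under 100 bp left out, the plain difference was -0.019 points. Regions with a read of any length behaved likewise, with 7.53% against 8.68% without, and 0.455 points after weighting. Regions with a 21 nt read had 7.52% against 8.59% without, and 0.640 points (0.350 to 0.931) after weighting. Those with a 22 nt read had 7.80% against 8.57% without, and 0.988 points (0.634 to 1.34) after weighting.

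This difference lay mostly in the stretches. In the stretches regions with a 24 nt read had a median level of 11.1% (quartiles 6.18 and 19.8%) and those without 8.33% (4.58 and 14.7%), although the regions with a read were longer, at 261 against 195 bp. Weighted over length classes the difference was 4.14 points (3.33 to 4.96), and 3.15 points with windows chosen on every other region. In the single stretches as given above the difference was 2.86 points on scaffold_5, 3.24 on scaffold_7, 4.23 on scaffold_9 and 4.31 on scaffold_10. In the rest of the chromosomes regions with a read had 7.203% against 8.76% without, and the weighted difference was 0.035 points (-0.150 to 0.221), between -0.876 and 1.08 points on the single chromosomes and above 0 on 7 of 11. On the other scaffolds it was -0.111 points (-0.698 to 0.477). Regions of 200 to 400 bp, the most frequent class, had medians of 9.78% with and 5.64% without a read in the stretches, 5.66 and 5.71% in the rest, and 5.18 and 5.08% on the other scaffolds. For 21 nt reads the weighted difference was 4.49 points (2.94 to 6.04) in the stretches and 0.348 points (0.035 to 0.661) in the rest, and for 22 nt reads 4.69 points (3.41 to 5.97) and 0.437 points (0.065 to 0.809), so a small difference remained in the rest for these lengths.

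**Figure D5:**
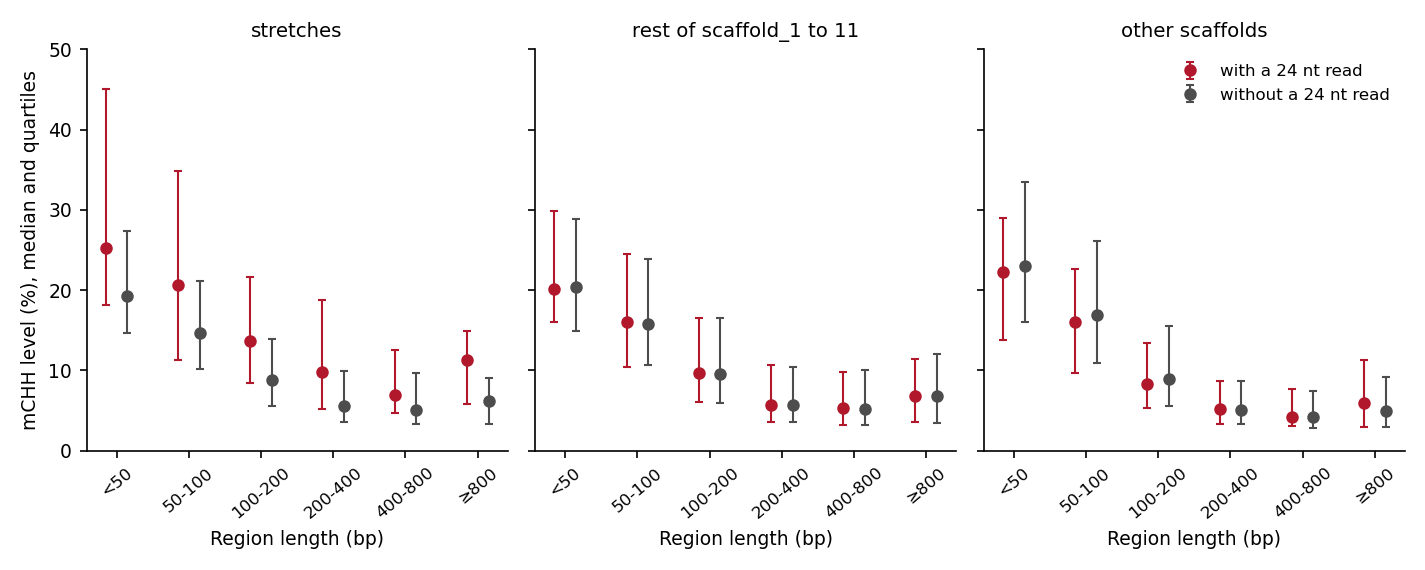
Median mCHH level with quartiles of regions with (red) and without (grey) a 24 nt read, by region length, in the stretches, the rest of scaffold_1 to scaffold_11 and the other scaffolds. In the stretches the red median is the higher in all 6 length classes, as in the 9.78 against 5.64% at 200 to 400 bp, and in the rest of the chromosomes both medians nearly coincide, as in the 5.66 against 5.71% there.

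The level also went with the number of 24 nt reads in the stretches. The median level there was 8.33% with no read, 9.83% with 1 read, 11.5% with 2 to 3 reads, 12.2% with 4 to 9 reads, 14.1% with 10 to 29 reads, and 11.3% in the 23 regions with 30 or more. In the rest of the chromosomes it was 8.76% with no read and between 6.59 and 7.50% in the other groups, in no order. Regions with 30 or more reads numbered 153 there and 21 on the other scaffolds, so dense 24 nt reads occurred in all 3 parts of the genome.

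Outside the stretches 20 windows reached 13%. The highest was the first megabase of scaffold_4, where 61 of 218 regions (28.0%) held a 24 nt read, followed by the window at 6 to 7 Mb of scaffold_11 with 38 of 163 (23.3%), that at 18 to 19 Mb of scaffold_2 with 21 of 111 (18.9%) and that at 7 to 8 Mb of scaffold_11 with 16 of 86 (18.6%). In the window of scaffold_4 and both windows of scaffold_11 regions with a read had the higher median level, 10% against 6.41%, 10.3 against 7.07% and 11.7 against 7.14%. The density of 24 nt reads above 25% mCHH was close to or below that at 5 to 15% in these 3, at 11.4 and 10.8, 4.04 and 5.25, and 8.49 and 11.3 per kb, from 21, 15 and 13 regions above 25%. In the window of scaffold_2, the third in share, regions with a read had the lower median, at 3.97 against 8.23%, and so had those of the fifth and sixth windows, on scaffold_8 (5.29 against 6.67%) and scaffold_5 (5.23 against 8.80%). The window with most 24 nt reads was that at 10 to 11 Mb of scaffold_10, inside a stretch, with 434 reads on 245 regions and a median level of 12.1%. The window with most region length, at 44 to 45 Mb of scaffold_3, held 419 regions over 137959 bp with a median level of 3.67% and 164 reads of 24 nt.

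Along the chromosomes as a whole, region length per window and level went opposite ways, with a Spearman correlation of -0.32 over 609 windows with at least 20 regions. With the span of each chromosome cut into 10 equal bins, the median level was 8.94% in the first bin, lowest in the fifth bin at 6.79%, highest in the ninth at 10.4%, and 9.93% in the last. The share of regions with a 24 nt read was 11.8% in the first bin and 4.71% in the last, and with the stretches left out the first bin had 7.27%. The last bin includes scaffold ends with no read of any length. An end was taken as all regions past the last region with a read, so its lack of reads is by definition. On scaffold_2 the end held 985 regions over the last 4.72 Mb, with a median level of 11.9%. Such ends held 263 regions on scaffold_8, 240 on scaffold_11 and 201 on scaffold_10, and 1889 regions on the 11 chromosomes together. Without them the last bin had 5.84% of regions with a 24 nt read, and scaffold_2 had 6.20% in place of 5.56%. In the rest of the chromosomes, without these ends, the share was 6.87%, the density ratio above 25% over 5 to 15% mCHH 1.01 and the weighted level difference 0.057 points. The ends were found after the data were seen, and leaving out regions without a read raises these shares in advance.

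Reads were concentrated in few regions, and to a degree that differed by length. The 1% of regions with most 24 nt reads held 61.5% of them (61.0 to 62.0%), 592 regions held 50%, and the region with most 24 nt reads held 0.519%. For 22 nt reads 398 regions held 50%. For 21 nt reads 50% lay in 2 regions, and for 20 nt reads in 1. The region with most reads, 337 bp at positions 22370700 to 22371037 of scaffold_2, had a level of 2.74%. It held 12201 reads of 21 nt and 4365 of 20 nt, and 183, 200, 150 and 183 reads of 22, 24, 25 and 26 nt, so it came first for 5 of the 6 lengths, 24 nt included. The next, 251 bp at positions 40823543 to 40823794 of scaffold_8 with a level of 11.99%, held 3849 reads of 21 nt, 23 of 20 nt and none of the other lengths. Both together held 53.3% of the 21 nt reads. Left out, the 24 nt share of all reads was 59.7% in place of 45.1%, and the 21 nt share 21.9% in place of 35.3%.

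The other regions among the 10 with most reads mostly had reads of every length in like numbers. On scaffold_39 the region at 173263 to 173476 (8.70% mCHH) had 88, 82, 89, 158, 116 and 157 reads in the order of length, and that at 212677 to 212877 (3.83%) had 52, 28, 35, 81, 74 and 71. On scaffold_9 the region at 33685911 to 33686144 (4.32%) had 32, 44, 116, 136, 151 and 132 reads, the most 25 nt reads of any region. The region at 15600248 to 15600314 of scaffold_10 (7.69%), only 66 bp long, was skewed to short reads, with 192, 125, 87, 74, 67 and 41. Such even spread over lengths was also seen at 645 to 1039 of scaffold_3426 (7.02%; 351 reads), 280 to 640 of scaffold_4200 (11.96%; 302 reads) and 2196 to 2495 of scaffold_4071 (38.2%; 291 reads). The last of the 10, 121 bp at 26847591 to 26847712 of scaffold_2 (12.5%), held 313 reads of 20 nt, 13 of 21 nt and none of 24 nt. Levels in these 10 regions ran between 2.74 and 38.2%, and none lay in a stretch.

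The regions above 25% mCHH that ranked highest by 24 nt reads per kb had another profile, which that ranking favours. Among regions of at least 100 bp above 25% mCHH, that with most 24 nt reads per kb, on scaffold_6, had 754 per kb, and the next 4 were as follows. Positions 338951 to 339116 of scaffold_8 (39.5% mCHH) had 69 reads of 24 nt among 91 and 418 per kb. Positions 20894952 to 20895052 of scaffold_5 (25.9%) had 39 among 44 and 390 per kb. Positions 35191307 to 35191474 of scaffold_3 (25.4%) had 59 among 71 and 353 per kb. Positions 10295164 to 10295425 of scaffold_10 (26.7%), in a stretch, had 71 among 83 and 272 per kb. The share of 24 nt reads in these 4 was between 75.8 and 88.6%, with 21 nt reads at 5.63 to 8.43%. The region on scaffold_4071 given above (38.2% mCHH) had 191 reads of 24 nt per kb but a 24 nt share of only 19.6%. Not all highly methylated regions with dense 24 nt reads thus had this profile.

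Of 3018 regions with at least 5 reads, 2094 (69.4%) had more reads of 24 nt than of any other length, and 788 (26.1%) had most reads of 21 nt. Those of 21 nt were mostly pure. In 580 regions all reads, between 5 and 57, were 21 nt long, and these regions had a median level of 7.07% and a median length of 305 bp. They were spread over all 11 chromosomes, at 33 to 74 each, and over 37 other scaffolds. Only 7 lay in a stretch, 0.116% of the regions there, against 535 (0.608%) in the rest of the chromosomes. Regions with at least 5 reads that were all 24 nt numbered 356, and 65 of them lay in a stretch (1.08% of the regions there) against 263 (0.299%) in the rest. Their median level was 12.1% in the stretches and 6.87% in the rest. The shares of both kinds of region in the stretches are tied to the choice of stretches by 24 nt reads. Only 1 region had at least 5 reads that were all 22 nt. Reads of 22 nt came with 24 nt reads in 74.9% of the regions that had them, and 24 nt reads came with 22 nt reads in 24.9% of theirs, while 60.7% of the regions with a 24 nt read had no read of another length.

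Regions with 24 nt reads lay near each other. Of those with a neighbour on their scaffold, 24.1% (23.2 to 25.1%) had a 24 nt read in the nearest region too, against 6.31% of the regions without a read. Over the rest of the chromosomes these shares were 22.6 and 5.63%, and in the stretches, where reads were frequent anyway, 28.5 and 19.1%. For 21 nt reads the shares over all regions were 7.80 and 3.15%.

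Some regions far apart carried equal read counts. Of 878 regions with at least 10 reads of at least 3 lengths, 218 (24.8%) had the same count in all 6 lengths as another region, in 90 sets of up to 6 regions. Levels within a set were not equal, with a median range of 9.66 percentage points and a range above 10 points in 43 of the sets. A set of 5 regions with 1, 2, 5 and 25 reads of 20, 21, 22 and 24 nt shows this. Its members on scaffold_2 (30799650 to 30799845) and scaffold_11 (6180505 to 6180630) had levels of 34.3 and 25% and lengths of 195 and 125 bp, and those on scaffold_6 (33248800 to 33249192) and scaffold_11 (44249602 to 44250026 and 11046215 to 11046802) had 3.81, 8.20 and 3.64% and lengths of 392, 424 and 587 bp. Low counts can be equal by coincidence, and whether these regions share sequence was not analysed here.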

How the data were processed

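The authors merged windows with methylated CHH sites from MethylC-seq into regions. These were trimmed to their outermost methylated sites and kept if they held a minimum number of such sites. Each level was deposited as a fraction between 0 and 1, printed here in percent. The authors trimmed small RNA reads with the UEA toolkit, aligned them with PatMan without mismatches and overlapped them with the regions by BedTools. The small RNA signal was deposited per read length as reads divided by all mapped hits of the library. Genome version v1.1 is named for the methylome in the study's methods.

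Whole hits, called reads above, were recovered with Python 3.11.15, NumPy 2.4.6, pandas 2.3.3 and SciPy 1.17.1 (figures: Matplotlib 3.10.9) by dividing by the smallest value. Length is end minus start, and the files do not say whether positions count from 0 or 1. Levels were grouped at 5, 15 and 25%, and lengths at 50, 100, 200, 400 and 800 bp. Densities were pooled over regions. Ratios have exact binomial intervals, shares Wilson intervals and medians order-statistic intervals. Level differences were averaged over length classes by the number of regions with a read. Densities at 5 to 15% were weighted to the length classes of the group above 25%. The functions were tested on simulated data.

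Regions and windows were named by rank in reads, level, length and 24 nt reads per kb (at least 100 bp for level and density). The windows with the largest shares outside the stretches and the sets of equal counts were chosen after their values were seen. Members, groups and alternatives were chosen with earlier results of these data known. No genome sequence or annotation was used, so genes and repeats at the regions were not analysed here.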

Additional observations from a re-analysis of the deposited data

How the results depend on the processing

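Of 83 recomputed values, 55 stayed within the interval of the value in the text, 27 moved beyond it and 1 changed direction. The density of 24 nt reads on the chromosomes over other scaffolds was 1.37 with only other scaffolds of at least 20 regions, in place of 0.944, and 0.985 without the 1% of regions with most reads. For 21 nt reads these were 4.11 and 1.33 in place of 2.48. The level difference between chromosomes and other scaffolds was 2.76 points with other scaffolds of at least 20 regions and 0.363 points by means. The 24 nt share of reads was 42.5% without the top 1% and 44.5% without regions under 100 bp. Leaving out those short regions also gave a level difference of -0.019 points between regions with and without a 24 nt read, a length ratio of 1.24 in place of 1.38, 59.1% of 24 nt reads in the top 1% of regions (54.7% ranked per kb), and 26.04% of regions with a 24 nt read whose nearest region had one (27.9% within 1 kb).

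In the stretches the density ratio above 25% over 5 to 15% mCHH was 2.64 with windows chosen on every other region, 2.79 without regions under 100 bp, 2.57 without the top 1%, and 2.81 (without scaffold_10) to 3.98 (without scaffold_9) when each stretch was left out. The weighted level difference was 3.15 points with windows chosen on every other region and 3.68 to 4.38 points when each stretch was left out. The share of regions with a 24 nt read was 22.4% at a window threshold of 15%, 22.2% with windows of 0.5 Mb, 22.7% without short regions, 18.9% without the top 1%, and 20.997 to 21.5% when each stretch was left out. In the rest of the chromosomes the density ratio was 1.06 at a threshold of 15% and 1.27 without the top 1%, and the share 7.69% without short regions and 5.89% without the top 1%. The cause of these shifts was not tested. Alternatives on the stretches were chosen after the data were seen.

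With 1 library, no value has a replicate check. Most regions with a read held 1 or a few, and the coverage behind each level is unknown. Hits of a read at several places are not independent, and nor are regions near each other. No paired analysis was possible because the library has no partner.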
